A study of Mus musculus with 26 samples.

Results

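The aminoacyl-tRNA synthetases were followed in the lacrimal gland of an autoimmune mouse strain over 5 ages. The list held 35 genes, 20 for the cytosolic enzymes and 15 for the mitochondrial ones, and 34 of them had a probe set that names only that gene, of 18194 genes on the array. Each gene was represented by the probe set with the highest mean log2 level over all 26 arrays, so that mean chose the probe sets and is not a finding. The fall of Cars from 4 to 20 weeks was already known when the list was drawn up, and its values between those ages are given as a description. No probe set named Dars alone. Yars, Pars2 and Wars2 lay above the array median on fewer than 4 arrays and were not tested, which left 31 synthetases tested, 18 cytosolic and 13 mitochondrial, among 12377 genes.

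The glands came from males of C57BL/6.NOD-Aec1Aec2, a C57BL/6 strain that carries the NOD-derived Idd3 region of chromosome 3 (Aec1) and Idd5 region of chromosome 1 (Aec2) and develops a disease like Sjögren's syndrome. Total RNA was hybridised to 26 Affymetrix arrays. There were 4 arrays for the age of 4 weeks, 6 each for 8 and 12 weeks, and 5 each for 16 and 20 weeks. The submitters describe 4 weeks as before disease, 8 weeks as pre-clinical, 12 weeks as the time when leukocytes enter the gland, 16 weeks as the early clinical phase and 20 weeks as the onset of secretory dysfunction. All samples share the strain and sex, and no other strain was analysed here, so age and disease stage cannot be told apart. The labels call the samples biological replicates without saying whether each is 1 animal or a pool, and the spread behind each p-value is that between these samples, which may in part be technical. In whole-gland RNA, fewer cells of a type and less RNA per cell cannot be told apart.

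Aminoacyl-tRNA synthetases attach each amino acid to its own tRNA, the step that fixes the meaning of the genetic code, and every cell that makes protein needs them. The acinar cells of the lacrimal gland are secretory cells that export large amounts of tear protein. Cytosol and mitochondria mostly use enzymes from separate genes, the mitochondrial ones marked by the suffix 2, while Gars and Kars each make the enzyme for glycine and lysine in both places. Several cytosolic synthetases sit together in the multi-synthetase complex, and many cytosolic synthetase genes are targets of ATF4, the transcription factor of the amino acid response, which binds a composite element together with C/EBP proteins.

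Before the synthetases are described, the arrays themselves need a word, because 2 of them stood apart. The standard deviation of all log2 values was 1.36 on replicate 1 of 20 weeks and 1.68 on replicate 4 of 16 weeks, where the remaining arrays had 1.78 to 2.27. With arrays of their own age, the pair had median correlations of 0.869 and 0.921, and the rest 0.956 to 0.986. The secretory cell markers, of which 14 of 16 had a probe set, averaged 10.3 to 11.1 at every age. Their summed levels were 114.9 to 153.1 at 16 weeks and 126.1 to 154.6 at 20 weeks. The low ends were those of the 2 arrays that stood apart. Marker means were 8.21 on replicate 4 of 16 weeks and 9.01 on replicate 1 of 20 weeks. On the other arrays of these ages the means ran from 10.72 to 10.94 and from 10.60 to 11.04. At most 2 of the 14 lay near background at any age (an age mean under 4.04, which is 1 log2 unit above the median of the array medians). Macrophage markers averaged 5.14 at 4 weeks and 6.88 to 7.20 later, and those of B and plasma cells 3.33 at 4 weeks and 3.91 to 4.82 later. T cell markers stayed near background, 9 or 10 of 10 genes at every age. Salivary gland genes, 6 of 11 with a probe set, averaged 9.37, 8.997, 10.41, 8.11 and 7.92 from 4 to 20 weeks, lower from 16 weeks on. Their summed levels ran from 28.5 to 74.5 at 8 weeks, 56.5 to 73.0 at 12 weeks, 38.7 to 57.0 at 16 weeks and 33.9 to 59.1 at 20 weeks. Adipose genes, 6 of 8 with a probe set, averaged 3.16, 3.18, 3.75, 4.30 and 3.34. They reached 6.11 on replicate 2 and 5.51 on replicate 1 of 16 weeks, and 5.41 on replicate 1 of 12 weeks. The part of these cell and tissue differences in the synthetase results was not tested.

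Of the synthetases that moved across the 5 ages, most were cytosolic. An F test over the ages, with p-values adjusted over all genes tested, called 9 of the 31 synthetases, 7 of 18 cytosolic (38.9%) and 2 of 13 mitochondrial (15.4%), where 14.9% of all genes tested were called. The cytosolic calls were Cars, Kars, Tars, Rars, Aars, Wars and Gars, and the mitochondrial ones Rars2 and Cars2. The Cars call includes the difference between 4 and 20 weeks that was known when the list was drawn up. The lowest age mean was at 16 or 20 weeks for 15 of the 19 cytosolic synthetases and 8 of the 15 mitochondrial ones, against 41.6% of genes tested and 30.1% of all genes. The median range between the highest and lowest age mean was 1.40 log2 units for the cytosolic genes and 0.51 for the mitochondrial ones, against 0.61 for the genes tested.

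**Figure D1:**
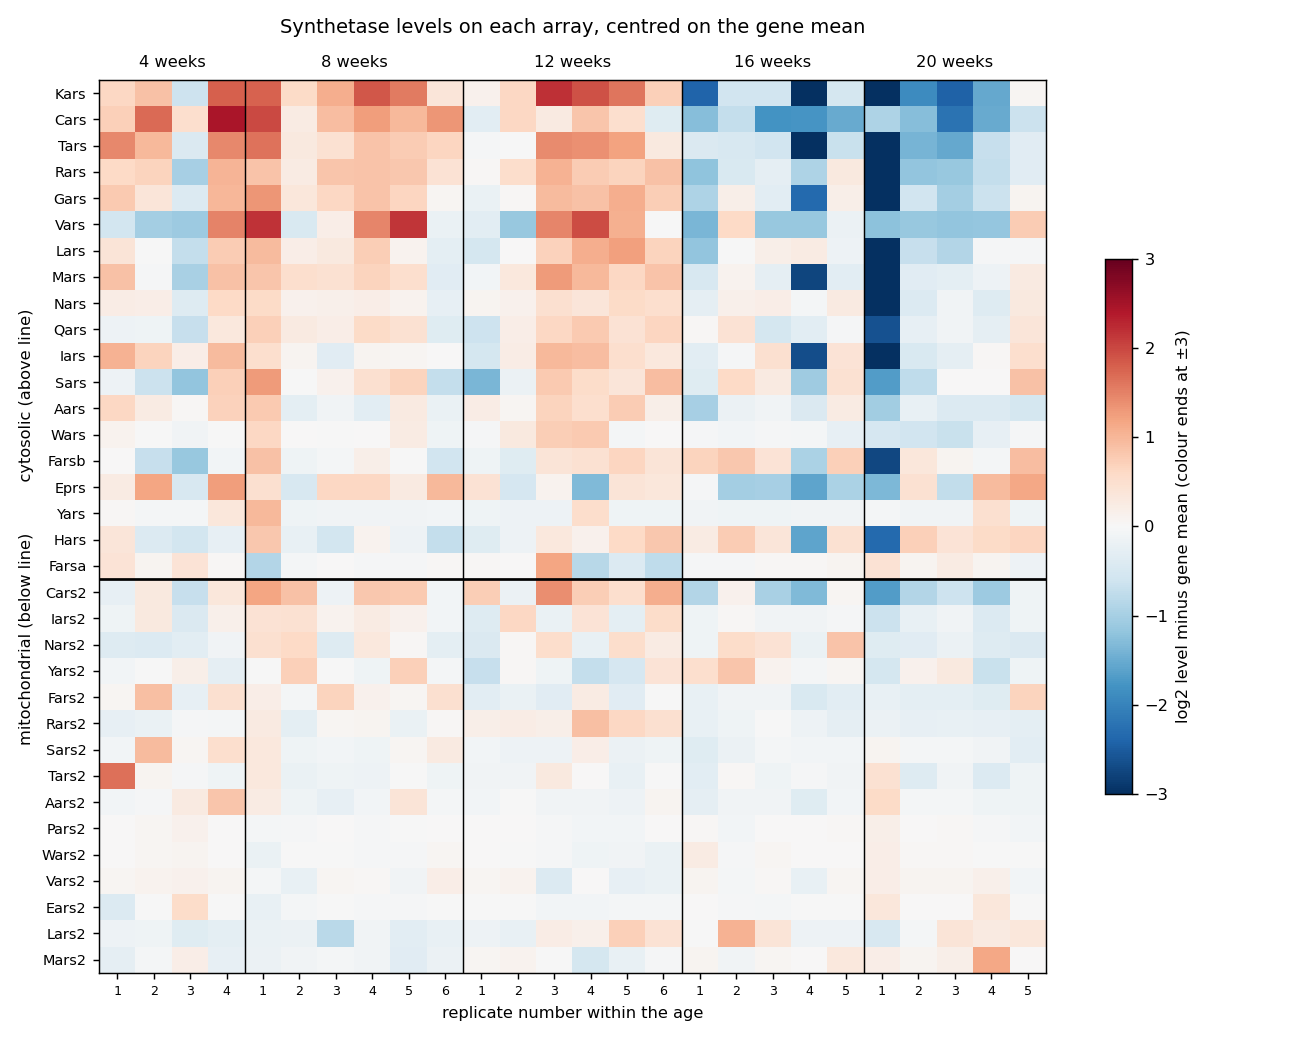
Log2 level of each of the 34 synthetases (rows) on each of the 26 arrays (columns, grouped by age and numbered by replicate), minus the gene's mean over all arrays; red is above and blue below that mean, and colours end at 3 log2 units either way. Kars, Cars, Tars and Rars are mostly blue at 16 and 20 weeks, replicate 1 of 20 weeks and replicate 4 of 16 weeks are blue for many cytosolic genes, and most mitochondrial rows stay pale.

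Cars (probe set 1452394_at), which charges tRNA with cysteine, had an adjusted p of 6.98e-05 in the F test, which spans the ages whose difference was already known. Its log2 levels were 6.37, 7.35, 6.16 and 8.09 at 4 weeks. They ran from 5.90 through a median of 6.76 to 7.64 at 8 weeks and from 5.29 through 6.04 to 6.47 at 12 weeks. They were 4.36, 4.94, 3.85, 3.87 and 4.14 at 16 weeks and 4.72, 4.38, 3.44, 4.15 and 5.003 at 20 weeks. All 10 arrays of 16 and 20 weeks thus lay below all 16 arrays of the younger ages. The fall from 12 to 16 weeks was 1.68 ± 0.35 (SE) log2 units, or 3.19-fold (adjusted p = 0.0166).

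Kars (probe set 1416068_at), the lysine enzyme of cytosol and mitochondria and a member of the multi-synthetase complex, was called in the F test (adjusted p = 0.00227). It read 7.50, 7.76, 6.25 and 8.67 at 4 weeks, 7.23 to 8.75 with a median of 8.20 at 8 weeks, 7.001 to 9.07 with a median of 8.03 at 12 weeks. It then read 4.47, 6.30, 6.29, 3.09 and 6.36 at 16 weeks and 3.44, 4.98, 4.45, 5.34 and 6.94 at 20 weeks. Every array of 16 and 20 weeks was below every array of 8 and 12 weeks, while the 4-week array at 6.25 lay among the later ones. Kars was 6.83-fold lower at 16 than at 12 weeks (a fall by 2.77 ± 0.62 log2 units, adjusted p = 0.0225) and 8.27-fold lower at 20 than at 8 weeks (3.05 ± 0.62 in SE, a fall, adjusted p = 0.00312).

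Tars (probe set 1460323_at), the threonine enzyme, had levels of 8.97, 8.50, 7.08 and 8.97 at 4 weeks, 7.82 to 9.15 with a median of 8.23 at 8 weeks and 7.48 to 8.94 with a median of 8.27 at 12 weeks. At 16 weeks it read 7.09, 7.04, 6.95, 4.37 and 6.86, and at 20 weeks 4.50, 6.14, 5.99, 6.84 and 7.18, so that the late arrays stood below all those of 8 and 12 weeks. The F test gave an adjusted p of 0.00568, and Tars fell by 2.16 ± 0.51 log2 units from 8 to 20 weeks (adjusted p = 0.00717).

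Rars (probe set 1416312_at), the arginine enzyme of the complex, was lowest at 20 weeks. Its levels were 8.65, 8.74, 7.06 and 9.09 at 4 weeks, 8.30 to 8.91 (median 8.88) at 8 weeks and 8.10 to 9.10 (median 8.77) at 12 weeks. They were 6.85, 7.60, 7.80, 7.14 and 8.34 at 16 weeks and 4.75, 6.87, 6.93, 7.35 and 7.72 at 20 weeks. The 20-week arrays did not overlap those of 8 or 12 weeks, but 1 array of 16 weeks did. The adjusted p of the F test was 0.00586, and the fall from 8 to 20 weeks was 4.02-fold (adjusted p = 0.00305), while the changes from 12 to 16 and from 16 to 20 weeks were not called (adjusted p = 0.109 and 0.609).

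The other 3 cytosolic calls were closer to the threshold. Aars (probe set 1451083_s_at), which charges alanine, read 9.30, 8.90, 8.71 and 9.36 at 4 weeks, 8.34 to 9.44 (median 8.51) at 8 weeks and 8.73 to 9.42 (median 9.03) at 12 weeks. It read 7.67, 8.49, 8.56, 8.23 and 8.91 at 16 weeks and 7.62, 8.44, 8.25, 8.25 and 8.14 at 20 weeks (F test adjusted p = 0.0162). All its 20-week arrays were below its 4-week arrays, with a fall by 0.93 ± 0.24 log2 units (adjusted p = 0.0443), and overlapped those of 8 weeks. That fall was called in 8 of the 26 fits that left out 1 array and in 6 of 13 other settings. The F test no longer called Aars once all arrays were given the same distribution (quantile normalisation, adjusted p = 0.24).

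Gars (probe set 1423784_at), the glycine enzyme of cytosol and mitochondria, read 9.97, 9.56, 8.77 and 10.19 at 4 weeks, 9.24 to 10.53 (median 9.82) at 8 weeks and 8.998 to 10.28 (median 10.002) at 12 weeks. It read 8.27, 9.37, 8.88, 6.86 and 9.37 at 16 weeks and 5.46, 8.62, 8.17, 8.54 and 9.28 at 20 weeks (F test adjusted p = 0.0445). The F test call was kept in 9 of the 26 fits that left out 1 array. The arrays at 6.86 and 5.46 are the 2 that stood apart, and the late arrays overlapped the early ones. Gars fell by 1.82 ± 0.52 log2 units from 8 to 20 weeks (adjusted p = 0.0207), and by 1.18 without replicate 1 of 20 weeks (adjusted p = 0.0593).

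Wars (probe set 1434813_x_at), the tryptophan enzyme, which interferon gamma is known to induce, stayed within a narrow band. It read 5.57, 5.45, 5.34 and 5.45 at 4 weeks, 5.33 to 6.08 (median 5.48) at 8 weeks and 5.41 to 6.24 (median 5.62) at 12 weeks. It read 5.41, 5.38, 5.43, 5.40 and 5.21 at 16 weeks and 4.97, 4.89, 4.80, 5.21 and 5.43 at 20 weeks (F test adjusted p = 0.0314). The groups overlapped except for 3 low arrays at 20 weeks. The probe set is of a kind that can cross-hybridise (suffix _x), and with such probe sets left out the Wars change from 8 to 20 weeks was 0.13 (adjusted p = 0.805) in place of a fall by 0.53 ± 0.16 (adjusted p = 0.0236).

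**Figure D2:**
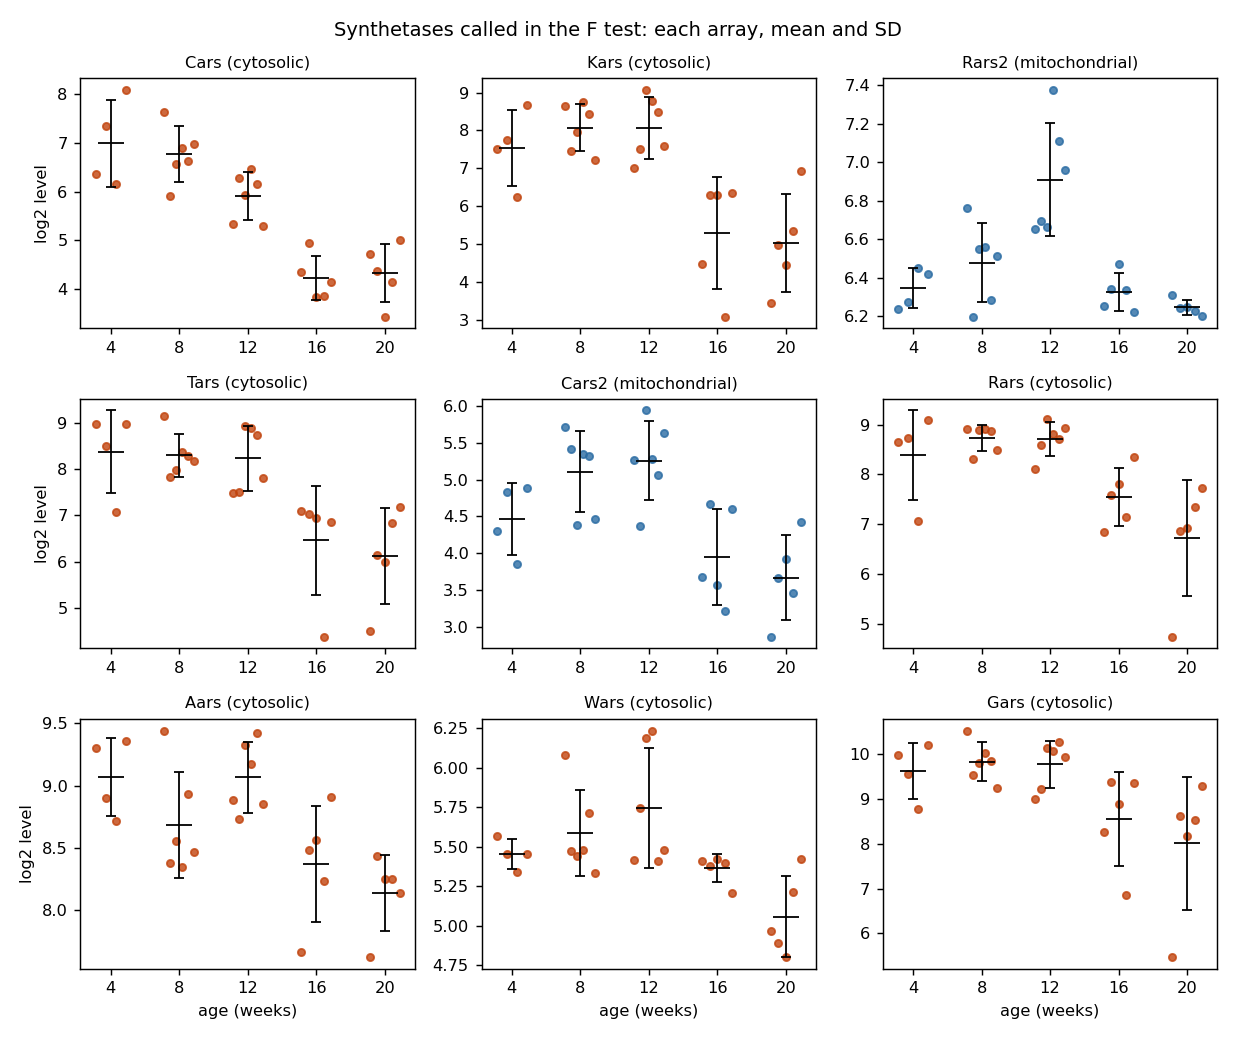
Log2 levels of the 9 synthetases called in the F test, 1 panel a gene, with each array as a point at its age in weeks and black bars for the mean and SD of the age (n = 4, 6, 6, 5 and 5). Cars and Kars drop between 12 and 16 weeks, Rars is lowest at 20 weeks with 1 array at 4.75, and Rars2 is highest at 12 weeks; each panel has its own axis.

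The mitochondrial calls were for cysteine and arginine. Cars2 (probe set 1428524_at), the mitochondrial cysteine enzyme, read 4.30, 4.83, 3.85 and 4.89 at 4 weeks, 4.39 to 5.72 (median 5.34) at 8 weeks and 4.36 to 5.95 (median 5.28) at 12 weeks. It read 3.68, 4.67, 3.56, 3.22 and 4.60 at 16 weeks and 2.86, 3.67, 3.92, 3.46 and 4.42 at 20 weeks (F test adjusted p = 0.00578). Its late values reached background (age means of 3.95 and 3.67) and overlapped the early ones, and the falls by 1.32 ± 0.33 from 12 to 16 weeks (adjusted p = 0.0369) and by 1.45 ± 0.33 from 8 to 20 weeks (adjusted p = 0.00659) rest in part on values at that level. From 4 to 20 weeks Cars2 had a change of -0.80 that was not called (adjusted p = 0.31).

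Rars2 (probe set 1424209_at), the mitochondrial arginine enzyme, stood out by a peak at 12 weeks. It read 6.24, 6.27, 6.45 and 6.42 at 4 weeks, 6.20 to 6.76 (median 6.53) at 8 weeks and 6.65 to 7.38 (median 6.83) at 12 weeks. It read 6.25, 6.34, 6.47, 6.34 and 6.22 at 16 weeks and 6.31, 6.24, 6.25, 6.23 and 6.20 at 20 weeks (F test adjusted p = 0.00289). All 12-week arrays were above all those of 4, 16 and 20 weeks, and Rars2 fell by 0.58 ± 0.12 log2 units from 12 to 16 weeks (adjusted p = 0.0127). After quantile normalisation, which gives all arrays the same distribution, that fall was 0.06 (adjusted p = 0.926) and the F test no longer called the gene (adjusted p = 0.623).

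The promoters of the synthetases were searched for the composite element that ATF4 binds with C/EBP proteins (TGATGNAA, on both strands) and for CACGTG, the E-box bound by Myc among others. The window of 300 bases ran from 250 before to 50 after the start in RefSeq's annotation of GRCm38.p6 and was found for 27 of the 35 genes, all but Cars, Hars, Lars, Nars, Rars, Vars, Wars and Pars2. TGATGNAA was in 5 of 13 cytosolic promoters (38.5%) and 0 of 14 mitochondrial ones, against 4.51% of 27025 genes with a promoter. CACGTG was in 4 of 13 (30.8%) and 1 of 14 (7.14%), against 8.09% of the genes. A match is a description and was not tied to binding here. The 5 promoters with TGATGNAA are shown 5′ to 3′ on the strand of the gene, with the match, or its reverse complement, in capitals:
Aars (chr8:111033592-111033891, plus strand): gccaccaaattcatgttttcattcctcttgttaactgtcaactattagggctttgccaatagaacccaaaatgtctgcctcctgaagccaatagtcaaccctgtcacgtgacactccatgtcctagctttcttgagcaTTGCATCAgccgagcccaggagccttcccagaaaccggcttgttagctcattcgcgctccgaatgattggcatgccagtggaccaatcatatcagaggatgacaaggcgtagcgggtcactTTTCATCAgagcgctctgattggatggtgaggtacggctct
Gars (chr6:55037751-55038050, plus strand): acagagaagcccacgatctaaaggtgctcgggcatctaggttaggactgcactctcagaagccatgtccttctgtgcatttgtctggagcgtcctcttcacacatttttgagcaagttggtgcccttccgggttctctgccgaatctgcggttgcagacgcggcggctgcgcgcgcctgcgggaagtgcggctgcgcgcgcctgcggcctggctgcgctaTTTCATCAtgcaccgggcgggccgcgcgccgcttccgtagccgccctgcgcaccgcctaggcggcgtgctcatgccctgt
Iars (chr13:49681880-49682179, plus strand): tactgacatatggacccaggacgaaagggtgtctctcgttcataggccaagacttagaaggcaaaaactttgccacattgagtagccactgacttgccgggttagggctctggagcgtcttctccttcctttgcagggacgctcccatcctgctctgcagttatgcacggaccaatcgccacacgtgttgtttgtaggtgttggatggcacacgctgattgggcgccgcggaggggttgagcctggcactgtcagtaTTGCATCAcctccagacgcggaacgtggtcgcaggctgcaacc
Tars (chr15:11399609-11399908, minus strand): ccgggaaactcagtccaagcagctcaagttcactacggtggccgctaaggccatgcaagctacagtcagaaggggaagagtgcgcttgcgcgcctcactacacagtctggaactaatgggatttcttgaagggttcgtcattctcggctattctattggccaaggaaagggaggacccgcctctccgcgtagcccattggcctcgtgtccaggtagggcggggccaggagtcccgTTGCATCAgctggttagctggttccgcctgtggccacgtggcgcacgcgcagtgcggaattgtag
Yars (chr4:129189653-129189952, plus strand): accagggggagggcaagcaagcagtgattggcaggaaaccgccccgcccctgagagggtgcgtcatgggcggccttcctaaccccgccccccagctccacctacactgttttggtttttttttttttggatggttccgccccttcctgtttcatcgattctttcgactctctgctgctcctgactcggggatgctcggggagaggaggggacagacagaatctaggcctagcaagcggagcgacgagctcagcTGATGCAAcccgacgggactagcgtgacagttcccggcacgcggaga
Aars holds 2 matches, 112 bases before the start and 9 after it, and also CACGTG, as do Iars and Tars. The match in Gars lies 30 bases before the start and that in Tars 15 before, while those of Iars and Yars lie 7 and 3 bases after it. Of these genes Aars, Gars and Tars were called in the F test, Iars was not (adjusted p = 0.229), and Yars, with age means of 1.58 to 1.77, was too dim to test. Kars, with a promoter in the table, has neither motif in its window.

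By age step, no synthetase was called from 4 to 8 weeks, where 1.14% of all genes tested rose and 0.218% fell, and none of the 31 had an unadjusted p under 0.05. From 8 to 12 weeks none was called either (limma, with 5 synthetases at an unadjusted p under 0.05), and 0.00808% of the genes were called in each direction. From 12 to 16 weeks 4 fell, Cars, Kars, Cars2 and Rars2, where 2.63% of the genes fell, and 0 rose, where 0.355% did. Arrays did not overlap between these ages for 3 cytosolic synthetases and 1 mitochondrial one, each lower at 16 weeks, as for 2.52% of all genes. From 16 to 20 weeks none was called (limma, 2 at an unadjusted p under 0.05), where 0.00808% of genes were called in each direction. The number called from 12 to 16 weeks depended on single arrays: it was 1 without replicate 4 of 12 weeks, 2 without replicate 3 or 5 of 12 weeks or replicate 1, 3 or 4 of 16 weeks, and 8 without replicate 1 of 20 weeks. The share of all genes called moved too, from 2.98% with all arrays to 0.549%, 0.663% to 0.994%, and 7.05%.

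From 4 to 20 weeks 3 cytosolic synthetases were lower at the adjusted threshold, Aars, Cars and Tars, where 1.31% of the genes fell and 0.897% rose, and none rose. Cars, chosen with this difference known, went from a mean of 6.99 ± 0.90 (SD, n = 4) to 4.34 ± 0.60 (SD, n = 5). Between these ages arrays did not overlap for 2 cytosolic synthetases, Cars and Aars, both lower at 20 weeks, as for 1.81% of all genes. The number called was 1 without replicate 1, 2 or 4 of 4 weeks or replicate 2, 3 or 4 of 20 weeks, and 5 without replicate 3 of 4 weeks or replicate 4 of 16 weeks. The share of all genes called was 2.21% with all arrays, 0.59% to 1.47% in the fits with 1 synthetase, and 3.32% and 2.97% in those with 5. From 8 to 20 weeks 9 fell, where 14.7% of the genes fell, and 1 rose, where 10.6% rose. Those that fell were Kars, Cars, Tars, Rars, Gars, Lars and Wars in the cytosolic class and Cars2 and Iars2 in the mitochondrial one. The Cars fall uses the 20-week arrays of the difference that was already known, and is given as a description. The arrays of 20 weeks lay wholly below those of 8 weeks for Cars, Kars, Tars, Rars and Iars2, as for 4.46% of all genes, and wholly above them for Mars2, as for 3.49%.

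Lars, the leucine enzyme of the complex, had age means of 8.38, 8.60, 8.80, 8.08 and 7.34 from 4 to 20 weeks and fell by 1.26 ± 0.44 from 8 to 20 weeks (adjusted p = 0.041), or by 0.74 without replicate 1 of 20 weeks (adjusted p = 0.149). Iars2, the mitochondrial isoleucine enzyme, went from 5.86 ± 0.20 (SD, n = 6) at 8 weeks to 5.34 ± 0.23 (SD, n = 5) at 20 weeks with no overlap of arrays, a fall by 0.51 (adjusted p = 0.0376), but had a change of 0.0604 after quantile normalisation (adjusted p = 0.859). Mars2, the mitochondrial methionine enzyme, was the only synthetase that rose, by 0.49 ± 0.16 (adjusted p = 0.0329), from a level near background (3.94 at 8 weeks) to 4.43 at 20 weeks, where 1 array at 5.27 stood above the other 4 at 4.11 to 4.30. The number called from 8 to 20 weeks was 5 without replicate 1 of 8 weeks or without replicate 1 of 20 weeks, and 15 without replicate 5 of 20 weeks. The share of all genes called was 25.2% with all arrays and 11%, 12% and 35.1% in these 3 fits.

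**Figure D3:**
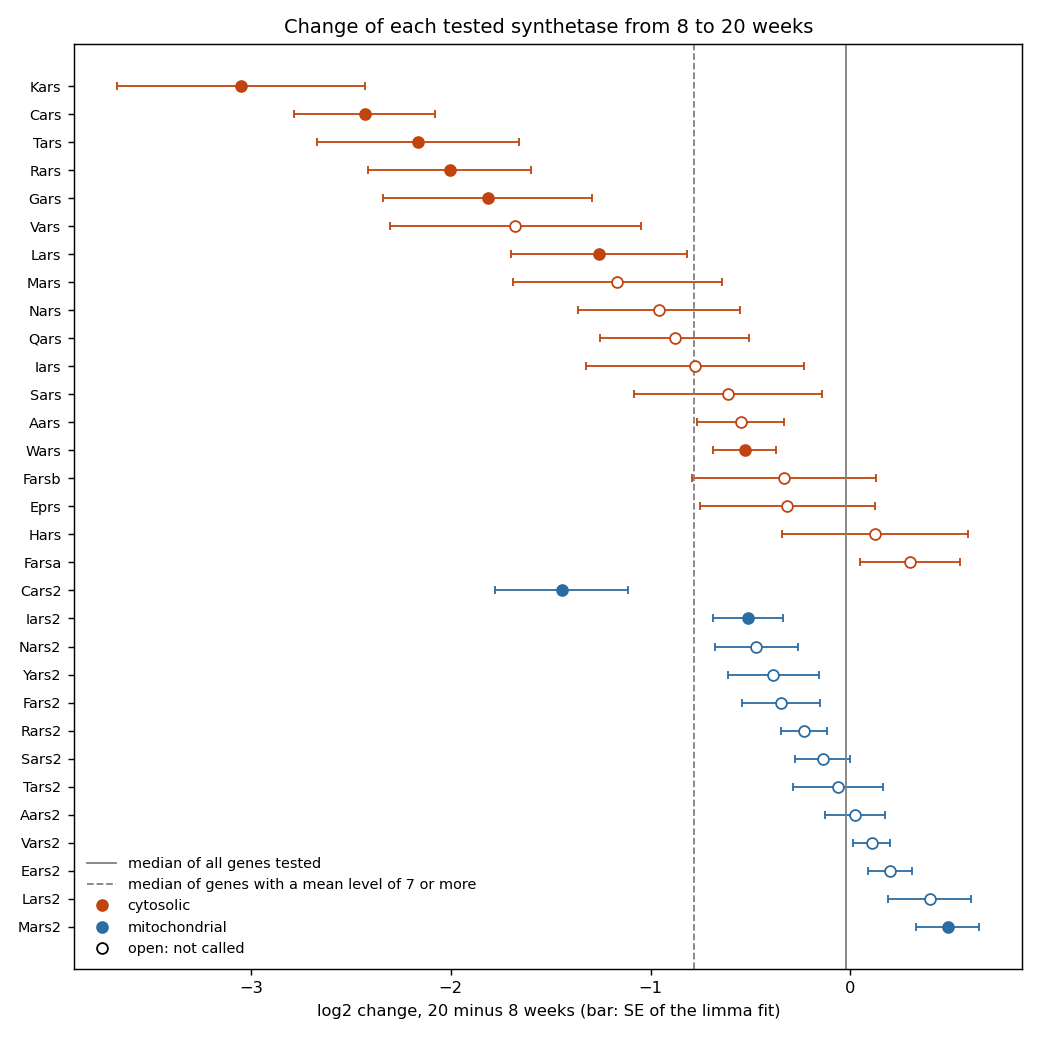
Log2 change from 8 to 20 weeks of each tested synthetase (rows, 18 cytosolic in orange and 13 mitochondrial in blue), with the SE of the limma fit; filled points are called at an adjusted p under 0.05. Of the cytosolic genes, Hars and Farsa lie to the right of 0, and the dashed line at -0.78 is the median of all tested genes with a mean level of 7 or more, which lies close to the cytosolic median of -0.88.

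Taking each class as a whole, the cytosolic synthetases were lower at 20 than at 8 weeks in 17 of 19 genes with a median change of -0.88, and the mitochondrial ones in 8 of 15 with a median of -0.06, against a median of 0.06 over all genes. From 12 to 16 weeks the medians were -0.72, 0.03 and 0.04, and from 4 to 20 weeks -0.92, -0.10 and 0.0074. From 4 to 8 weeks they were 0.13, -0.07 and -0.06, and from 8 to 12 weeks 0.03, -0.01 and -0.0087. When each gene was centred on its mean, the cytosolic median per array averaged 0.19, 0.31, 0.40, -0.33 and -0.73 from 4 to 20 weeks, and the mitochondrial median stayed between -0.15 and 0.19 on all arrays. Of the 15 mitochondrial genes, 8 lay near background at some age, 5 of them at every age, where a change can hardly be seen. Of the 19 cytosolic genes 2 did, at every age.

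The change also moved with the signal of the probe set, which depends on the probe as well as on the amount of RNA. Of all genes tested, 2626 had a mean signal of 7 or more, a limit chosen after the values were seen, among them 13 cytosolic and 0 mitochondrial synthetases. From 8 to 20 weeks these genes of high signal had a median change of -0.78 and 27.7% fell, while the 13 cytosolic synthetases among them had a median of -0.88 and 4 fell. From 12 to 16 weeks the medians were -0.51 and -0.72, and from 4 to 20 weeks -0.33 and -0.93. The F test called 22.2% of the high-signal genes and 4 of the 13 synthetases. Below that limit both classes had tested genes, such as Cars, Kars, Wars and Farsa beside Rars2, Yars2 and Fars2, and the classes were not compared at matched signal. The part of signal in the difference between the classes was not tested.

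**Figure D4:**
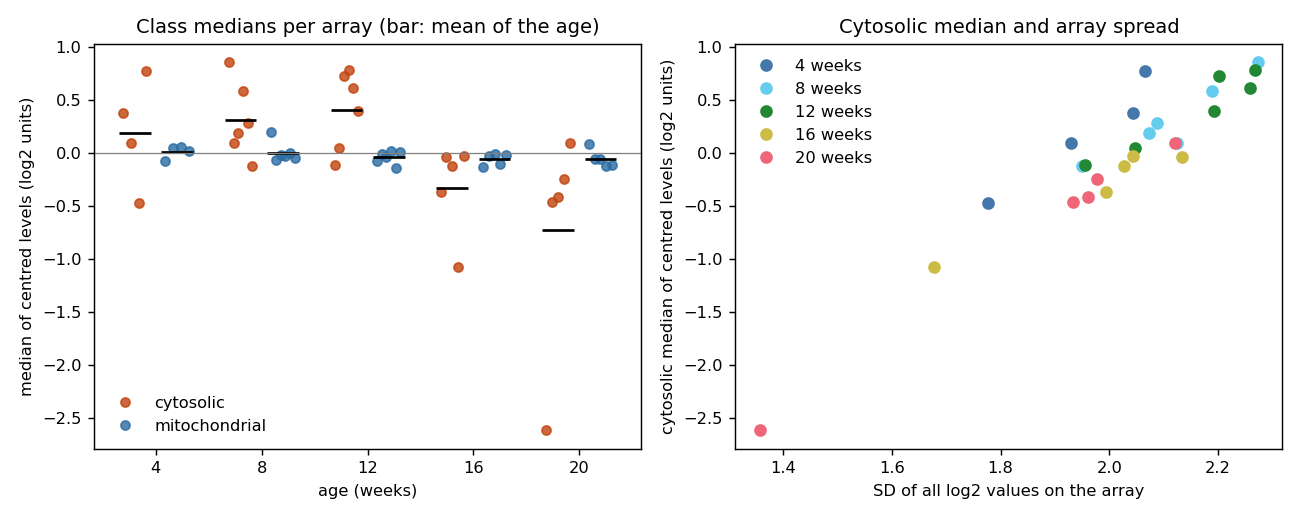
Left, the median over 19 cytosolic and over 15 mitochondrial synthetases of the centred log2 level on each array, by age, with a bar for the mean of the age. Right, the cytosolic median against the SD of all log2 values on the same array, coloured by age: the array at -2.61 has the smallest SD, 1.36, and arrays of wide spread have high cytosolic medians.

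The cytosolic median also moved with the spread of the values on an array. On replicate 1 of 20 weeks, the array of smallest spread, it was -2.61, against -0.46 to 0.09 on the other 4 of that age, and on replicate 4 of 16 weeks it was -1.07. Mean spreads by age were 1.95, 2.12, 2.15, 1.98 and 1.87. With the spread as a covariate the cytosolic median change from 8 to 20 weeks was -0.14, with 11 of 19 genes lower. After quantile normalisation it was -0.19 with 13 lower, and without replicate 1 of 20 weeks it was -0.42 with 15 lower. The cytosolic median change from 12 to 16 weeks was -0.29 with the covariate and -0.15 after quantile normalisation. From 4 to 20 weeks it was -0.51 with the covariate, -0.58 after quantile normalisation and -0.37 without replicate 1 of 20 weeks. Under quantile normalisation the mitochondrial median turned to 0.08, and the high-signal genes had medians of 0.07 with the covariate and -0.13 after quantile normalisation.

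Of the falls of single genes, 6 were also called under both of these settings. Among them, that of Cars shares its 20-week arrays with the difference known when the list was drawn up. Of all genes tested, 9.34% were called either way from 8 to 20 weeks with the covariate and 21.8% after quantile normalisation. Cars, Kars, Tars, Rars, Gars and Cars2 fell from 8 to 20 weeks with the spread as a covariate and after quantile normalisation, by 2.23, 1.84, 1.11, 1.22, 0.62 and 0.90 log2 units with the covariate (adjusted p = 0.0012, 0.0065, 0.0138, 0.0062, 0.0119 and 0.0412). Hars, the histidine enzyme, which was not called in the first fit (a change of 0.12, adjusted p = 0.851), rose by 1.15 with the covariate (adjusted p = 0.00132) and by 0.80 after quantile normalisation (adjusted p = 0.00698). The other Hars probe set went the other way. It fell by 1.35 when every probe set naming 1 gene was tested without a covariate (adjusted p = 0.0301). Lars2, the mitochondrial leucine enzyme, changed by 0.40 in the first fit (adjusted p = 0.15), and rose by 0.71 under either setting (adjusted p = 0.0144 and 0.00146). Farsb, a subunit of the phenylalanine enzyme, changed by -0.33 in the first fit (adjusted p = 0.593) and rose with the covariate (0.72, adjusted p = 0.0032). It was not called after quantile normalisation. Its chosen probe set carries the suffix _x, and its other probe sets that passed the filter changed by -0.85 and -0.38 in the first fit.

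RNA quality probes moved as well. The difference between the 3′ and 5′ probe sets for actin, a sign of RNA degradation or short cRNA, averaged 2.90, 2.63, 3.69, 4.56 and 3.89 log2 units from 4 to 20 weeks, and that for Gapdh 1.62, 1.15, 1.80, 2.03 and 2.54. With the actin difference as a covariate, 7 synthetases were called across the ages, 1 from 12 to 16 weeks (Rars2), 1 from 4 to 20 weeks (Cars) and 4 from 8 to 20 weeks (Cars, Kars, Rars and Cars2), while Tars had an adjusted p of 0.0711 in the last. The shares of all genes called in these comparisons were 8.89%, 0.937%, 1.42% and 5.66%. The cytosolic median change from 8 to 20 weeks was then -0.65.

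Different probe sets for the same synthetase often gave different changes. The 34 genes had 70 probe sets, of which 34 cytosolic and 22 mitochondrial ones passed the filter. For Aars the chosen probe set changed by -0.55 from 8 to 20 weeks and the other by -2.55, for Nars, the asparagine enzyme, by -0.96 and -2.35, and for Hars by 0.12 and -1.35. Qars, the glutamine enzyme, had 4 probe sets that passed, from -2.40 to 0.44, and Eprs, which charges both glutamic acid and proline, had 4 from -1.82 to 0.23. The other Cars2 probe set changed by 0.34 where the chosen one fell by 1.45. Of the 19 chosen cytosolic probe sets, 7 carry the suffix _x or _s, which marks probes shared with other transcripts. When every probe set naming 1 gene was tested, an alternative added after the values were seen, 13 of 34 cytosolic and 2 of 22 mitochondrial probe sets fell from 8 to 20 weeks, where 14.9% of the 20110 probe sets tested fell. Between the same ages 2 cytosolic and 3 mitochondrial probe sets rose, where 11.8% of all did. Across the ages 10 cytosolic and 3 mitochondrial probe sets were called, where 14.9% of all were.

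**Figure D5:**
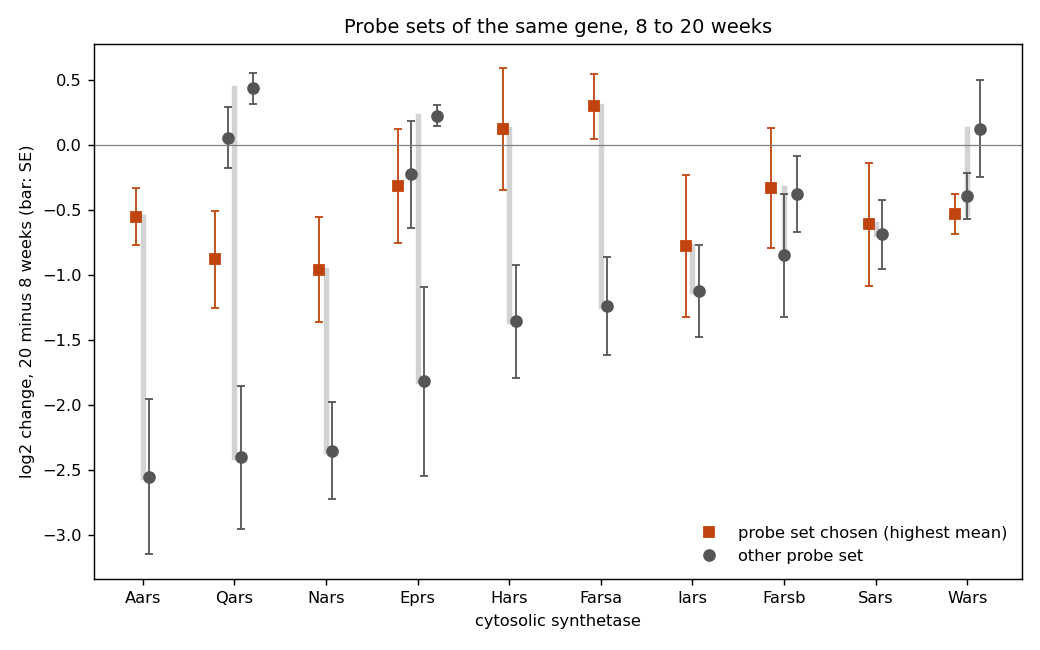
Log2 change from 8 to 20 weeks of every probe set that passed the filter, for the 10 cytosolic synthetases with more than 1 of them; orange squares are the chosen probe sets, grey circles the others, and bars the SE of the limma fit. For Aars, Qars, Nars, Eprs, Hars and Farsa the probe sets lie more than 1 log2 unit apart.

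Split by the multi-synthetase complex, a grouping made after the values were seen, synthetases that fell were found inside and outside it. Of the 8 listed members of the complex (Dars, Eprs, Iars, Kars, Lars, Mars, Qars and Rars) 7 were tested, 2 were called across the ages and 3 fell from 8 to 20 weeks, with a median change of -1.17 and a range from -3.05 to -0.32. Of the other 12, 11 were tested, 5 were called across the ages and 4 fell from 8 to 20 weeks, with a median of -0.58 and a range from -2.43 to 0.30. Of all genes tested, 14.9% were called across the ages and 14.7% fell from 8 to 20 weeks. The difference between these groups was not tested. The scaffold proteins that hold the complex together fell in 3 of 3 genes from 8 to 20 weeks: Eef1e1 by 1.80 ± 0.36 (adjusted p = 0.00292), Aimp1 by 1.70 ± 0.40 (adjusted p = 0.0078) and Aimp2 by 0.70 ± 0.25 (adjusted p = 0.0426), where 14.7% of all genes fell. All 3 fell with the array spread as a covariate, and after quantile normalisation Aimp1 and Eef1e1 did.

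Paired by amino acid, the cytosolic change from 8 to 20 weeks lay below the mitochondrial one in 11 of 12 pairs tested. The cytosolic gene also had the higher mean signal in 10 of the 12 pairs. The pairs were taken from the first fit, and the part of signal or array spread in them was not tested. The cysteine pair, Cars and Cars2, was the only pair in which both fell (-2.43 and -1.45). For arginine the changes were -2.01 and -0.23, for threonine -2.16 and -0.06, for leucine -1.26 and 0.40, and for methionine -1.17 (Mars, adjusted p = 0.0975) and 0.49. The exception was phenylalanine, with 0.30 for Farsa and -0.35 for Fars2, neither called. Of the remaining mitochondrial genes, Aars2, Ears2, Sars2, Tars2 and Vars2 had changes from -0.14 to 0.20, and Nars2 and Yars2 changes of -0.47 and -0.39, none of them called.

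Genes that work beside the synthetases gave a mixed picture from 8 to 20 weeks, where 14.7% of all genes tested fell and 10.6% rose. The share called either way was 25.2%, against 9.34% with the array spread as a covariate, 21.8% after quantile normalisation and 12% without replicate 1 of 20 weeks. Of the cytosolic elongation factors, which bring charged tRNA to the ribosome and move it on, 2 of 6 fell and 0 rose. With the covariate 1 fell and 1 rose, after quantile normalisation 2 fell and 1 rose (Eef1d), and without replicate 1 of 20 weeks 1 fell. Eef1a2 fell by 1.05 ± 0.24 (adjusted p = 0.00707), and Eef1a1 had a change of -1.65 ± 0.78 (adjusted p = 0.113). Of 13 genes for amino acid stress sensors and initiation factor 2, 4 fell and 0 rose, among them Eif2s3x, a subunit of the factor that carries the initiator tRNA, by 2.07 ± 0.32 (adjusted p = 0.000575), and Eif2b3, a subunit of its exchange factor, by 1.42 ± 0.25 (adjusted p = 0.00142). With the array spread as a covariate, and also without replicate 1 of 20 weeks, 2 of the 13 fell, and after quantile normalisation 3 fell and 1 rose.

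Other targets of ATF4 fell in 7 of 21 tested genes, with 0 that rose, where 14.7% of all genes fell and 10.6% rose. Those that fell included Shmt2 and Mthfd2 of mitochondrial one-carbon metabolism by 2.19 ± 0.56 (adjusted p = 0.0115) and 1.24 ± 0.45 (adjusted p = 0.0464) and Psph of serine synthesis by 1.48 ± 0.38 (adjusted p = 0.0123). With the array spread as a covariate 0 of the 21 fell in limma and 1 rose, after quantile normalisation 4 fell and 2 rose, and without replicate 1 of 20 weeks 2 fell and 1 rose. Atf4 itself, named after its values were seen, had age means of 10.8, 11.3, 11.2, 11.3 and 10.7 (adjusted p = 0.541 in the F test). Of 12 amino acid transporters 4 fell and 1 rose. Slc1a5, a glutamine carrier, fell by 2.22 ± 0.52, Slc3a2 and Slc7a5, which together import large neutral amino acids, by 2.11 ± 0.46 and 1.95 ± 0.51, and Slc6a9, a glycine carrier, by 0.93 ± 0.30. Slc1a5 and Slc3a2 also fell with the covariate, where no other transporter was called, and after quantile normalisation 3 fell and 2 rose.

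On the mitochondrial side, 32 of 71 mitochondrial ribosomal protein genes fell and 0 rose from 8 to 20 weeks, where 14.7% of all genes fell and 10.6% rose. They had a median change of -0.79 over the 72 with a probe set, while the 15 mitochondrial synthetases had a median of -0.06. These groups were not compared at matched signal. All tested genes with a mean signal of 7 or more, among them 0 mitochondrial synthetases, had a median of -0.78. Among the ribosomal protein genes, the lowest F test p-values belonged to Mrps7 (a fall by 2.01 ± 0.33, adjusted p = 0.00084), Mrpl22 (1.68 ± 0.44, a fall), Mrpl20 (1.36 ± 0.25, a fall) and Mrpl38 (1.48 ± 0.39, a fall). With the array spread as a covariate 10 of the 71 fell and 3 rose, after quantile normalisation 17 fell and 4 rose, and without replicate 1 of 20 weeks 19 fell and 2 rose. Of 10 mitochondrial translation factors and tRNA amidation genes, Mtfmt, which formylates the initiator methionine tRNA, fell by 1.05 ± 0.23 (adjusted p = 0.00529) and 1 rose. Of 12 genes that interferon gamma induces, the setting in which Wars is known to rise, 0 fell and 1 rose, and Gbp2 had the smallest F test p, with age means of 4.64, 5.96, 6.84, 7.28 and 6.77, while Wars was lowest at 20 weeks.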

How the data were processed

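The deposited table holds log2 expression of 45101 probe sets on 26 arrays. RMA and GCRMA appear, per the submitters' processing notes, with no role or version, and which of them gave the authors' log2 values stayed unknown. The values were used as deposited, with array medians of 2.94 to 3.22 and the number of arrays limits what can be resolved.

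Gene symbols came from the platform annotation: 34958 had 1 symbol, 932 several and 9211 were not listed, and only the first kind was used. A gene was tested if its probe set of highest mean lay above the array median on at least 4 arrays. Models were fitted over all arrays with limma 3.58.1 (lmFit, eBayes) in R 4.3.3 with a mean per age, an F test and 6 two-sided contrasts. Benjamini-Hochberg adjustment ran over 12377 genes, with calls at an adjusted p under 0.05. The script was tested on simulated data.

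The members, gene lists and motifs were chosen with earlier results of these data known. Values on every array are given for synthetases called in the F test, age means or ranges for the others, and up to 4 genes of smallest F test p for each companion list. Promoter sequences are RefSeq's (GRCm38.p6). The other settings were quantile normalisation, median centring, other filters, other probe set rules, trend and robust eBayes, array weights, the array spread or actin difference as covariates, replicate blocks, only the ages compared, and leaving out arrays. Same-numbered arrays of different ages had a median correlation of -0.08 over 47 pairs, with a range from -0.48 to 0.49 and 14 pairs over 0.1. The labels do not say what the numbers mean, so whether they pair samples is not known, and no pairing was used in the main fit.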

Additional observations from a re-analysis of the deposited data

Results flagged for a closer look

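Of 55 groups of 4 to 6 arrays examined, 1 for each of the 9 called synthetases and the 2 class medians at each age, 5 had an array far from the others, where chance gives about 1 in 20. Rars on replicate 1 of 20 weeks was at 4.75, with the other arrays of that age at 6.87 to 7.72. The cytosolic median on the same array was -2.61, with the others at -0.46 to 0.09. Tars on replicate 4 of 16 weeks was at 4.37, with the others at 6.86 to 7.09. Wars on replicate 5 of 16 weeks was at 5.21, with the others at 5.38 to 5.43. The mitochondrial median on replicate 1 of 8 weeks was 0.19, the highest of its age, with the others at -0.07 to -0.0055.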

How the results depend on the processing

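The F test calls of Cars, Kars, Rars, Tars and Cars2 were kept in all 12 other settings and all 26 fits that left out 1 array, and the falls of Cars, Kars, Rars and Cars2 from 8 to 20 weeks in all 13 other settings and all 26. For Cars, both results use the 20-week arrays of the difference already known, so they only describe it. For Cars2, another probe set that passed the filter changed by 0.34 from 8 to 20 weeks and was not called (adjusted p = 0.0756). The Wars fall turned to 0.13 without _x and _s probe sets and that of Iars2 to 0.0604 under quantile normalisation. With array weights, whose estimation stopped before it converged, 26 synthetases were called across the ages, 9 from 4 to 8 weeks, 1 from 8 to 12, 12 from 12 to 16, 17 from 4 to 20 and 16 from 8 to 20 weeks, where 65.9%, 36.8%, 1.15%, 22.6%, 28.1% and 40.3% of all genes were. With the array spread as a covariate 1 was called from 4 to 8 weeks and 8 from 4 to 20 (1.54% and 8.81% of all genes), and with the actin difference 1 from 12 to 16, 1 from 4 to 20 and 4 from 8 to 20 weeks (0.937%, 1.42% and 5.66%). With only the ages compared 2 were called from 12 to 16 weeks, 0 from 4 to 20 (limma) and 6 from 8 to 20. From 4 to 20 weeks 7 were called under quantile normalisation, 1 with median centring, 1 with no filter, 5 with the filter at the 75th percentile, 6 with the mean of all probe sets, and 5 without the 2 arrays that stood apart, where 6.88%, 1.44%, 0.896%, 4.4%, 3% and 8.25% of all genes were. With every probe set naming 1 gene, 6 synthetases had at least 1 called probe set from 4 to 20 and 18 from 8 to 20 weeks. These are counts of genes, not of probe sets. By probe set, 13 of 34 cytosolic and 2 of 22 mitochondrial ones fell between the latter ages, and 2 and 3 rose. Of all probe sets tested, 14.9% fell and 11.8% rose between those ages. For this fit from 4 to 20 weeks, and for only the ages compared, no share of all genes is given. Those counts cannot be read as particular to the synthetases. With the replicate number as a block 8 were called across the ages and 1 from 4 to 20 weeks (10.6% and 1.33% of all genes), and what the numbers mean is not known. Only 2 of 26 arrays correlated best with an array of their own number.

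Leaving out 1 array gave 7 to 10 calls across the ages, 1 to 8 from 12 to 16 weeks, 1 to 5 from 4 to 20 and 5 to 15 from 8 to 20 weeks. In these fits the share of all genes called ran from 11.1% to 23.9%, 0.549% to 7.16%, 0.59% to 5.83% and 11% to 35.1%. The median mitochondrial change then ran from -0.072 to 0.034 from 12 to 16 weeks and from -0.18 to 0.015 from 8 to 20 weeks. The cytosolic median change from 8 to 20 weeks was -0.19 under quantile normalisation and -0.14 with the spread as a covariate. The mitochondrial medians under quantile normalisation were -0.18 from 4 to 8 weeks, 0.16 from 12 to 16, 0.076 from 16 to 20 and 0.083 from 8 to 20. The last was -0.15 with median centring, -0.18 without the 2 arrays that stood apart and -0.18 with the actin difference, and the 12 to 16 week median was -0.075 without _x and _s probe sets. The causes were not tested. Signal near background limits Cars2, Mars2, Tars2, Aars2, Nars2, Vars2, Vars and the 3 untested genes. Of the tested ones, Aars2, Nars2, Vars2 and Vars lay near background at every age.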
